A study of Mus musculus with 12 samples.

Results

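Transcripts of 38 genes that mark endothelial cells, the cells that line blood and lymph vessels, were followed in RNA-seq libraries of sorted mouse satellite cells. The 38 genes were taken by symbol from the count table of 55401 genes, and each was found once. They comprise receptors for vascular endothelial growth factor (VEGF) and angiopoietin, junction and adhesion proteins, endothelial transcription factors, capillary transport proteins, secreted proteins and signaling proteins. The lymphatic endothelium is represented by *Lyve1* and *Flt4*. The 12 libraries were made from *Pax7*-ZsGreen+ cells of both hind limbs of adult mice, 3 to 4 months old by the study's methods, that carried CXCR4 FL/FL alleles and the Pax7-ZsGreen reporter and received tamoxifen (80 mg/kg, 5 days). KO mice also carried Pax7-creERT2, which removes exon 2 of *Cxcr4* in cells that use the *Pax7* promoter and does not target endothelial cells, whereas WT mice carried no Cre. Quiescent libraries (4 WT and 4 KO) came from freshly sorted cells and activated libraries (2 WT and 2 KO) from cells cultured overnight after sorting. The labels do not tie a library to a mouse, so that p-values measure the spread between libraries.

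Satellite cells, the stem cells of muscle, lie under the basal lamina of the fiber and close to capillaries, and they are separated from endothelial cells by enzymatic dissociation and sorting. In endothelium, VEGF signals through KDR and FLT1 and the angiopoietins through TEK, while ETS and SOXF transcription factors such as ERG, FLI1, SOX17 and SOX18 maintain genes of the cell junctions. CD31, the product of *Pecam1*, is used to exclude endothelial cells in surface marker sorts, whereas the sort for these libraries is described by the ZsGreen reporter and viability alone. Several of the 38 genes are also used elsewhere: *Cd36* in muscle fibers, *Fabp4* in adipocytes, *Aqp1* in erythrocytes, *Podxl* in podocytes, *Ednrb* in melanocytes and *Lyve1* in macrophages.

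The labelled cell type was checked against its own genes. *Pax7*, the satellite cell transcription factor, was at 482, 337, 444 and 303 CPM (counts per 1000000 counts of the library, after TMM scaling) in the WT and 181, 237, 289.9 and 279 CPM in the KO quiescent libraries. *Cxcr4*, the targeted gene, was at 59.1 to 112 CPM in WT and 12.5 to 21.2 CPM in KO quiescent libraries, and at 14.4 to 33.3 and 5.39 to 13.7 CPM in WT and KO activated libraries. Quiescent libraries held between 12775593 and 23717013 counts, of which a single ribosomal RNA gene took 0.295 to 0.807%, and activated libraries held between 3172164 and 5427280, of which it took 11.5 to 40.3%. CPM and fold changes were both scaled by TMM, with this gene in the totals. *Ddx3y*, on the Y chromosome, was at 289 to 570.4 CPM in quiescent and 0 to 2.28 CPM in activated libraries, and *Xist* at 1.20 to 7.17 and 451 to 817 CPM, so that culture cannot be told apart from the sex of the mice, the depth or the ribosomal RNA share.

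Promoters are shown for 3 abundant members, with and without the letters GGAAGT, which ETS factors bind and for which the members' promoters were searched on both strands. Of the 38 genes, 21 matched a RefSeq promoter window (GRCm38.p6, 300 bases, of which 250 precede the annotated start). The RefSeq start of *Aqp1* lies upstream of the GENCODE start given below with the quiescent levels of this gene. Each line gives the 250 bases before the start, 5′ to 3′ on the strand of the gene, with GGAAGT or its complement ACTTCC in capitals.
Flt1, chr5:147726012-147726261, minus strand: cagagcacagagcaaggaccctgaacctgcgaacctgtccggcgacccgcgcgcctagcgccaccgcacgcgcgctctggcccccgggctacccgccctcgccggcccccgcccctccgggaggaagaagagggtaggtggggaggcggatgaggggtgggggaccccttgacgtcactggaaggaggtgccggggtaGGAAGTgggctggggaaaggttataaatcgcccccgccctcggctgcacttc
Eng, chr2:32646345-32646594, plus strand: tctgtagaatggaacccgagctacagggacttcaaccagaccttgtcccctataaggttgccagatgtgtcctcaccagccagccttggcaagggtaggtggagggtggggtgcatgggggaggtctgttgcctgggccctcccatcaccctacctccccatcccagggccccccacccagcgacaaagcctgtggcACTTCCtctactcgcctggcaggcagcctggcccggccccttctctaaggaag
Aqp1, chr6:55336049-55336298, plus strand: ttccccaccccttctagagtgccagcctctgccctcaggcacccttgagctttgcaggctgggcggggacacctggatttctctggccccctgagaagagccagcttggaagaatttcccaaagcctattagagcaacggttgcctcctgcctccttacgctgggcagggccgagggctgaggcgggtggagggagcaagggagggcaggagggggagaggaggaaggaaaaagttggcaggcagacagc

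*Flt1* held the letters on its own strand and *Eng* on the opposite strand, 52 and 53 bases before the start, and the window of *Aqp1* held neither. Over the whole 300 bases, GGAAGT was found in 9 of 21 members (42.9%) and in 26.5% of all 27025 genes with a window. The other ETS form, CCGGAA, which shares its GGAA with the first, was found in 2 members (9.52%) and 16.7% of genes. The SOX letters AACAAT were found in 4 members (19.0%) and 12.2% of genes, the GATA letters AGATAA in 3 (14.3%) and 12.7%, and TATAAA in 4 (19.0%) and 15.7%. These matches describe letters in a window and not bound sites.

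Endothelial transcripts were present in every library of sorted cells. All 38 genes had counts in every library, at least 45 counts in each quiescent library, and all passed the filter on low counts. Together they made up 0.125 to 0.850% of the counts of a quiescent library and 0.0568 to 0.271% of those of an activated library. Per kilobase of exon, so that genes can be compared, *Aqp1*, a water channel of capillaries, led with 413 ± 217 (SD, n = 8) CPM per kilobase over the quiescent libraries. It was followed by *Plvap*, a protein of fenestral diaphragms, at 90.4 ± 44.4 (SD, n = 8), *Cldn5*, a tight junction protein, at 79.3 ± 42.3 (SD, n = 8), and *Ly6c1*, a capillary surface protein, at 61.7 ± 41.3 (SD, n = 8) CPM per kilobase. For comparison, *Pax7* was at 54.5 ± 17.2 (SD, n = 8) on the same scale, below these 4 members and above the other 34. At the low end were *Emcn*, a sialomucin of veins and capillaries, at 2.38 ± 1.40 (SD, n = 8), *Lyve1* at 2.21 ± 2.23 (SD, n = 8) and *Flt4*, the lymphatic VEGF receptor, at 1.91 ± 1.09 (SD, n = 8) CPM per kilobase. In the order of the 38 levels, only *Aqp1* and *Plvap* were further apart than the larger of their SDs, and the other 36 neighboring pairs were not. These SDs include the rise and fall that members shared between libraries. Whether neighboring genes kept their order within each library was not tested. *Ly6c1* shares much of its sequence with its neighbor *Ly6c2*, so that its count is uncertain.

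The members were high or low together from one quiescent library to the next, in both genotypes. Their summed level was 6072, 6174, 2734 and 2995 CPM in the WT libraries, in the order of replicates 1 to 4, and 7643, 2349, 6109.7 and 1397 CPM in the KO libraries, a 5.47-fold range. WT replicates 1 and 2 and KO replicates 1 and 3 were high, and WT replicates 3 and 4 and KO replicates 2 and 4 were low. For 37 of the 38 members these 4 libraries were the 4 highest of the 8, the exception being *Lyve1*. Of 10806 genes with a mean over 5 CPM in quiescent libraries, 9.29% had the same 4 libraries on top. KO replicate 4 was the lowest library for 35 members and KO replicate 1 the highest for 25. The ratio of the highest to the lowest library had a median of 5.04 over the members, from 2.41 for *Tek* to 11.6 for *Lyve1*, and of 1.91 over those genes. In bulk RNA, fewer cells of a type and less RNA per cell cannot be told apart.

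**Figure D1:**
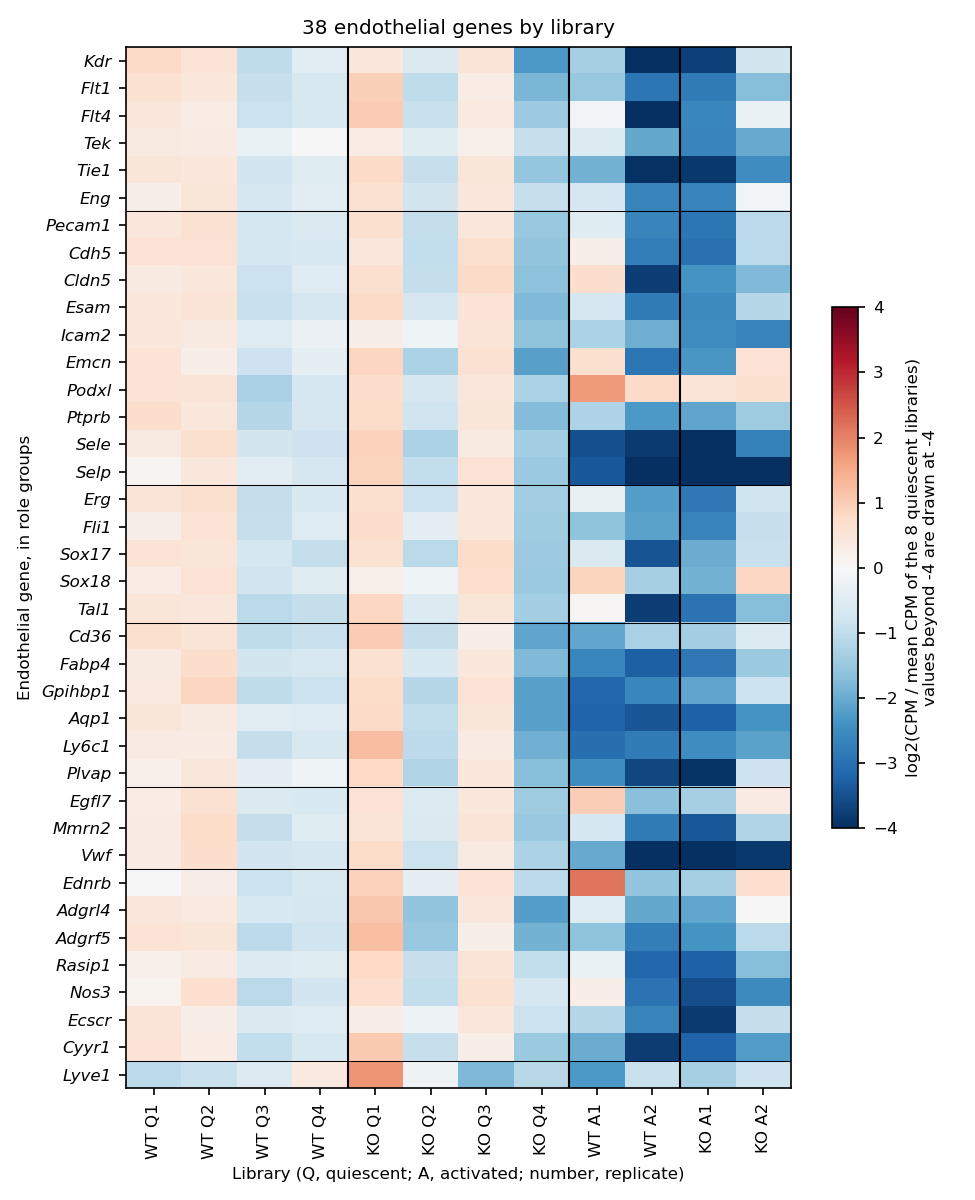
Level of each of the 38 endothelial genes (rows, in role groups divided by lines) in each of the 12 libraries (columns), as log2 of CPM over the gene's mean in the 8 quiescent libraries. For 37 of the 38 genes WT Q1, WT Q2, KO Q1 and KO Q3 hold the 4 highest quiescent values, and *Podxl* is above its quiescent mean in all 4 activated libraries.

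*Pecam1* (ENSMUSG00000020717, chr11:106654217-106750628, minus strand), which encodes CD31, was at 276, 303, 123 and 135 CPM in the WT and 315, 103, 276 and 70.2 CPM in the KO quiescent libraries. *Cdh5* (ENSMUSG00000031871, chr8:104101625-104144511), which encodes VE-cadherin of endothelial junctions, was at 289.7, 286, 119.7 and 126 CPM in the WT and 265, 97.5, 300.3 and 64.5 CPM in the KO quiescent libraries. In both genes each genotype had 2 high and 2 low libraries and the genotypes overlapped throughout. The ratio of *Pecam1* to *Pax7*, both in CPM, ranged from 0.251 to 1.74 over the quiescent libraries. It also moves with *Pax7*, which was at 303 to 482 CPM in WT and 181 to 289.9 CPM in KO quiescent libraries.

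*Flt1* (ENSMUSG00000029648, chr5:147561604-147726011), a VEGF receptor that also acts as a decoy, was at 323, 289.7, 112 and 135 CPM in the WT and 409, 106, 262 and 60.1 CPM in the KO quiescent libraries. *Eng* (ENSMUSG00000026814, chr2:32646595-32682669), or endoglin, a co-receptor of the BMP and TGF-beta family, was at 221, 264, 118 and 142 CPM in the WT and 289, 114, 259.9 and 100.2 CPM in the KO quiescent libraries. The receptors had the same 4 high libraries as the junction genes, with KO replicate 1 highest and KO replicate 4 lowest for both *Flt1* and *Eng*.

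*Aqp1* (ENSMUSG00000004655, chr6:55336432-55348555) was at 1532, 1404, 809.7 and 764 CPM in the WT and 1855, 548, 1529 and 243 CPM in the KO quiescent libraries. *Plvap* (ENSMUSG00000034845, chr8:71497765-71511752) was at 206, 245, 137 and 159.8 CPM in the WT and 314, 78.8, 241 and 55.7 CPM in the KO quiescent libraries. Both capillary genes were lowest in KO replicate 4, where *Aqp1* made up 17.4% of the members' sum, against 22.7% to 29.6% in the WT quiescent libraries.

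Among transcription factors, *Sox17* (ENSMUSG00000025902, chr1:4490931-4497354), a SOXF factor of arterial endothelium, was at 90.4, 86.7, 38.6 and 32.4 CPM in the WT and 95.5, 29.4, 104 and 22.9 CPM in the KO quiescent libraries. *Erg* (ENSMUSG00000040732, chr16:95359169-95586593), an ETS factor, was at 64.1, 69.7, 22.9 and 29.2 CPM in the WT and 68.9, 24.5, 58.9 and 17.0 CPM in the KO quiescent libraries. These factors, at lower levels than the junction genes, had the same 4 high libraries. The remaining factors *Fli1*, *Sox18* and *Tal1*, which also acts in blood formation, ranged from 6.94 to 44.2 CPM.

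*Vwf* (ENSMUSG00000001930, chr6:125546774-125686679), the platelet adhesion protein stored in endothelial granules, was at 159, 204, 73.5 and 79.4 CPM in the WT and 208, 68.9, 161 and 52.6 CPM in the KO quiescent libraries. *Mmrn2* (ENSMUSG00000041445, chr14:34375465-34404287), an endothelial matrix protein, was at 136, 177, 55.1 and 77.1 CPM in the WT and 152, 72.2, 152 and 37.8 CPM in the KO quiescent libraries. *Adgrf5* (ENSMUSG00000056492, chr17:43360451-43459557), an adhesion G protein-coupled receptor, was at 352, 334, 117 and 139 CPM in the WT and 551, 83.4, 282 and 65.1 CPM in the KO quiescent libraries. These 3 genes had the same 4 high libraries, and *Adgrf5* spanned 8.47-fold. *Cyyr1* (ENSMUSG00000041134, chr16:85421533-85553397), a membrane protein of little known function, was at 97.1, 81.0, 33.9 and 43.2 CPM in the WT and 138, 35.3, 80.2 and 23.8 CPM in the KO quiescent libraries. 

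*Lyve1* (ENSMUSG00000030787, chr7:110850607-110863239), the hyaluronan receptor of lymphatic vessels, stood apart from the other 37 members, with 3.13, 3.48, 4.39 and 8.43 CPM in the WT and 21.8, 5.60, 1.87 and 3.02 CPM in the KO quiescent libraries. Its highest library was KO replicate 1 and its lowest KO replicate 3, which was among the 4 highest for every other member. *Flt4*, the receptor of the lymphatic growth factor VEGF-C, had the same 4 high libraries as the other members and ranged from 5.71 to 31.7 CPM.

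Genes of other cell types less often had the same 4 high libraries, which is given as a count and was not tested. Of 30 further endothelial genes outside the 38, 19 had the same 4 libraries on top, as did 6 of 10 genes of pericytes and smooth muscle, the mural cells of vessels. The same held for 3 of 10 genes of fibroadipogenic progenitors, 2 of 7 Schwann cell genes and none of the 10 satellite cell genes, 12 blood cell genes and 10 muscle fiber genes. Summed over the 10 satellite cell genes, the level was 5647, 5801, 7754 and 8945 CPM in WT and 6635, 6106, 6409 and 9519 CPM in KO quiescent libraries, highest in KO replicate 4, where the endothelial sum was lowest. The most abundant of these 10 were *Sdc4* (2140 to 3067 CPM) and *Myod1* (813 to 3097 CPM), and 4 of the 10 were highest in KO replicate 4. *Pax7* was not, at 279 CPM in KO replicate 4 and highest, at 482 CPM, in WT replicate 1. The pericyte and smooth muscle sum ranged from 2749 to 3879.8 CPM. Its most abundant genes, *Des* (830 to 1766 CPM) and *Notch3* (367 to 997 CPM), were highest in KO replicate 4. *Rgs5*, at 171 to 1066 CPM, had the same 4 libraries on top and was lowest in KO replicate 4. The fibroadipogenic sum ranged from 358 CPM in KO replicate 1, where the endothelial sum was highest, to 3283 CPM in KO replicate 3. Of these 10 genes, *Col1a1*, *Col3a1* and *Dpt*, the most abundant, were lowest in KO replicate 1, and 5 were lowest in KO replicate 4. Schwann cell genes summed to 270.2 to 631 CPM and blood cell genes to 135 to 432 CPM. The part of these cell types in the members' levels was not tested.

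**Figure D2:**
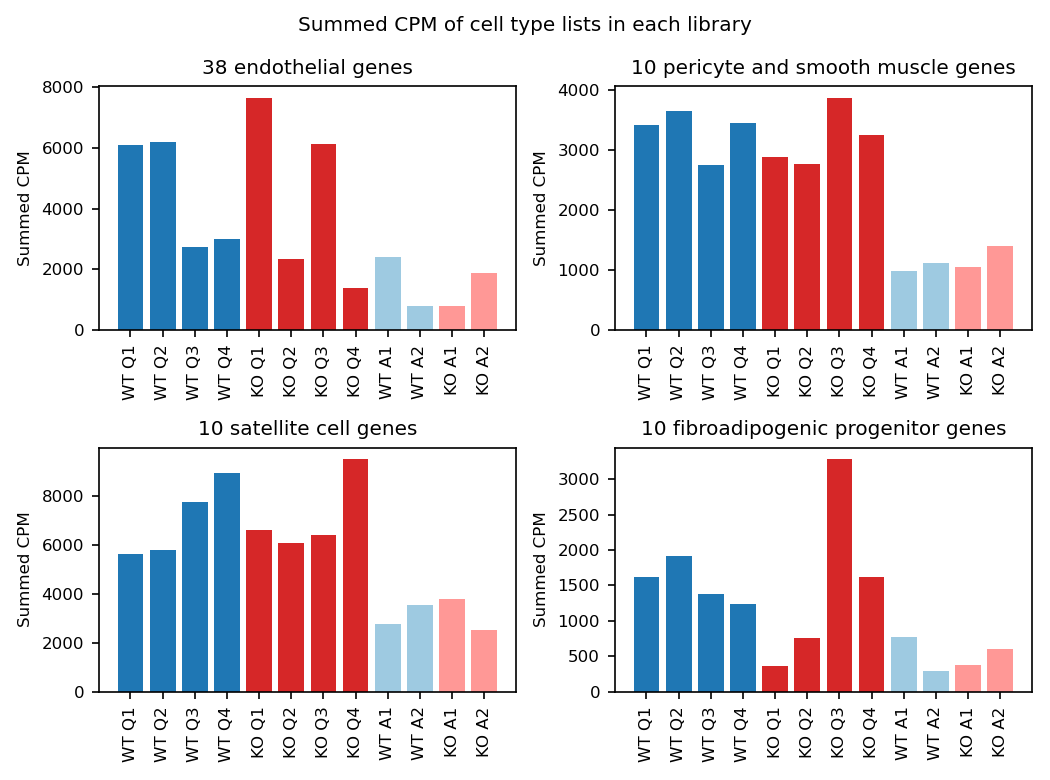
Summed level in CPM of the genes of each cell type list in each library, with WT in blue, KO in red and activated libraries in lighter shades. The sum of the 38 endothelial genes spans 1397 to 7643 CPM in the quiescent libraries and 789 to 2399 CPM in the activated libraries, and the WT and KO libraries overlap in both states.

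The first comparison asked whether loss of *Cxcr4* in satellite cells was accompanied by a different level of endothelial transcripts in freshly sorted cells. None of the 38 members was called, where a call needed an adjusted p under 0.05, a log2 fold change beyond 1 and a mean normalized count above 10 (edgeR quasi-likelihood test with Benjamini-Hochberg adjustment), and 0.0155% of the 25771 genes tested were called. No member had an unadjusted p under 0.05 (edgeR), near the 1.74% of all genes at that level, so that this count is no result about the members. DESeq2 called none. The genotypes overlapped for every member, and the share of all genes with such an overlap was not counted. The summed level was 4494 ± 1885 CPM (SD, n = 4) in WT and 4375 ± 2981 CPM (SD, n = 4) in KO libraries. The log2 fold changes of KO over WT ranged from -0.27 to 0.73, with a median of 0.00 against 0.02 over all genes. The 95% intervals of the 38 members lay within -1.46 and 1.94 on the log2 scale.

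By role, the receptors had log2 fold changes of -0.27 to 0.16, *Flt1* having -0.04 ± 0.47 (SE) and *Eng* 0.03 ± 0.46 (SE). The log2 fold changes of the 10 junction and adhesion genes lay between -0.18 and 0.15, *Pecam1* having -0.13 ± 0.48 (SE), interval -1.13 to 0.87, and *Cdh5* -0.18 ± 0.53 (SE), interval -1.29 to 0.93. Those of the 5 transcription factors lay between -0.13 and 0.17, and the 6 capillary genes between -0.12 and 0.24, *Aqp1* having -0.11 ± 0.43 (SE). None of these values was past the test. *Lyve1* had the lowest unadjusted p of the members, with a log2 fold change of 0.73 ± 0.58 (SE) (edgeR quasi-likelihood test, adjusted p = 1.00). Without KO replicate 1, the fold change of *Lyve1* was -0.48.

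**Figure D3:**
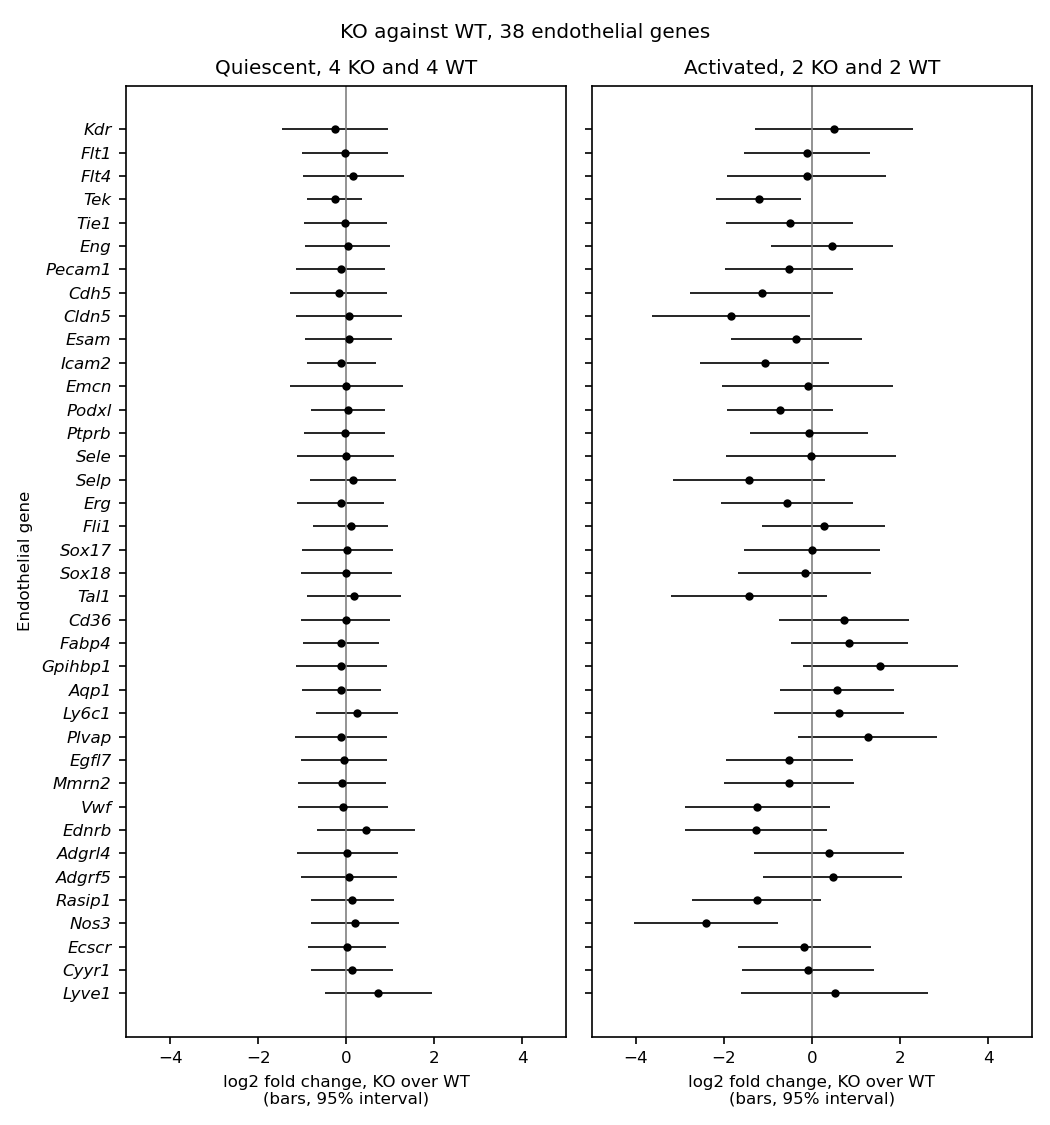
Log2 fold change of KO over WT for each of the 38 endothelial genes in quiescent and activated libraries, with bars that give the 95% interval of the edgeR quasi-likelihood fit. The quiescent values lie between -0.27 and 0.73, and the activated values, from 2 libraries per genotype, spread from -2.40 to 1.56 with none called.

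In activated cells, the same comparison rested on 2 libraries per genotype. WT replicate 1 and KO replicate 2 had high and WT replicate 2 and KO replicate 1 low endothelial sums, at 2399 and 789 CPM in WT and 792 and 1893 CPM in KO libraries. For 32 of the 38 members these were the 2 highest of the 4 activated libraries, against 17.7% of 10236 genes with a mean over 5 CPM in activated libraries. The 6 exceptions were *Icam2*, *Podxl*, *Cd36*, *Gpihbp1*, *Ly6c1* and *Lyve1*.

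No member was called between KO and WT activated libraries by edgeR or DESeq2, against 0.0504% of all genes by edgeR, and 3 members had an unadjusted p under 0.05. These 3 are 7.89% of the members, near the 8.37% of all genes at that level. *Nos3* (ENSMUSG00000028978, chr5:24364810-24384474), the endothelial nitric oxide synthase, was at 56.9 and 6.13 CPM in the WT and 4.11 and 8.21 CPM in the KO activated libraries. Only WT replicate 1 was high, and the genotypes overlapped. The log2 fold change was -2.40 ± 0.78 (SE), with the lowest unadjusted p of the members and adjusted p = 0.342 (edgeR quasi-likelihood test). Without WT replicate 1 it was -0.08, and without WT replicate 2, which left WT replicate 1 alone, it was -3.28 and called. Exons of *Nos3* share bases with the antisense gene *Gm15587*, and whether the counting used strand is not given in the sources used here. The other 2 members were *Tek*, the angiopoietin receptor, and *Cldn5*, both chosen after their values were seen. *Tek* was at 38.1 and 13.6 CPM in the WT and 8.99 and 13.9 CPM in the KO activated libraries, with a log2 fold change of -1.21 ± 0.46 (SE) and adjusted p = 0.454 (edgeR), which was -0.34 without WT replicate 1 and -1.81 without WT replicate 2. *Cldn5* was at 183 and 8.32 CPM in the WT and 21.6 and 32.9 CPM in the KO activated libraries, with a log2 fold change of -1.84 ± 0.86 (SE) and adjusted p = 0.595 (edgeR). WT replicate 1 was high and WT replicate 2 was below both KO libraries, and the value turned to 1.61 without WT replicate 1 and was -2.83 and called without WT replicate 2.

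By role, no gene was past the test in this comparison. All 6 capillary genes had positive log2 fold changes, from 0.57 for *Aqp1* to 1.56 for *Gpihbp1*, which binds lipoprotein lipase on capillaries. All 10 junction and adhesion genes had negative ones, from -1.84 for *Cldn5* to -0.01 for *Sele*. Values below 0 were held by 4 of 6 receptors, 3 of 5 transcription factors, all 3 secreted proteins, 5 of 7 signaling genes and not by *Lyve1*. In all, 25 of the 38 members (65.8%) were below 0, against 44.8% of the genes above 5 CPM. Over the 38 members the median was -0.14, against 0.00 over all genes. The genotypes did not overlap for 4 members, *Icam2* and *Podxl*, lower in KO, and *Gpihbp1* and *Ly6c1*, higher in KO. These are 10.5% of the members, against 34.3% of the genes above 5 CPM and 0.0504% of all genes called, so that they are not a result about the members. The direction depended on single libraries, since *Pecam1* went from -0.51 ± 0.70 (SE) to 0.82 without WT replicate 1 and to 0.12 without KO replicate 1. Whether the effect of genotype differed between activated and quiescent cells was tested as an interaction, in which 0% of all genes and none of the members were called by edgeR. Of the members, *Nos3* alone had an unadjusted p under 0.05, with an interaction of -2.59 ± 0.91 (SE) on the log2 scale and adjusted p = 0.590 (edgeR). This is 2.63% of the members, against 6.59% of all genes at that level. DESeq2 called no member and, over all genes, 21 genes as higher and 32 as lower.

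The second comparison set cells cultured overnight against freshly sorted cells of the same genotype. Lower or higher in WT or KO here means activated against quiescent libraries of that genotype, and a call in one genotype alone does not show a difference between them, for which no member was called. In WT, 17 of the 38 endothelial genes were lower in activated libraries and 1, *Podxl*, was higher, against 16.5% of all genes called lower and 9.64% called higher (edgeR quasi-likelihood test with Benjamini-Hochberg adjustment). In KO, 18 were lower and none was higher by edgeR or DESeq2, against 18.5% and 11.1% of all genes, and 0 members with a positive fold change had an unadjusted p under 0.05. The 17 were 44.7% and the 18 47.4% of the members. Among the 10806 genes with a mean over 5 CPM in quiescent libraries, 26.7% and 28.8% were called lower. The median log2 fold change of the members was -1.37 in WT and -1.67 in KO, beside -0.92 and -0.96 over all genes tested and -0.27 and -0.25 over the genes above 5 CPM. Relative to the median of all genes tested, 28 members lay lower in WT and 30 in KO. The genes called lower in both genotypes numbered 13, which is 76.5% of the WT and 72.2% of the KO list, against 83.0% and 76.9% for the genes above 5 CPM.

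The counts depended on single libraries. With all libraries, 4246 of 25771 genes were called lower in WT. Without WT quiescent replicate 1, these were 10 members and 3687 of 23642 genes. Without WT quiescent replicate 2, they were 11 members and 3687 of 25801 genes. These libraries had the higher endothelial sums among the WT quiescent libraries. Fits without an activated library left 1 library in that group. The count of members in WT fell without replicate 2 and rose without replicate 1, and that in KO fell without replicate 1. Calls over all genes fell in each of these fits. The replicates whose removal lowered the members' count had the lower endothelial sum among the activated libraries of their genotype. One count was worth 0.163 to 0.438 CPM in activated libraries, in which the lowest member had 1 to 8 counts.

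**Figure D4:**
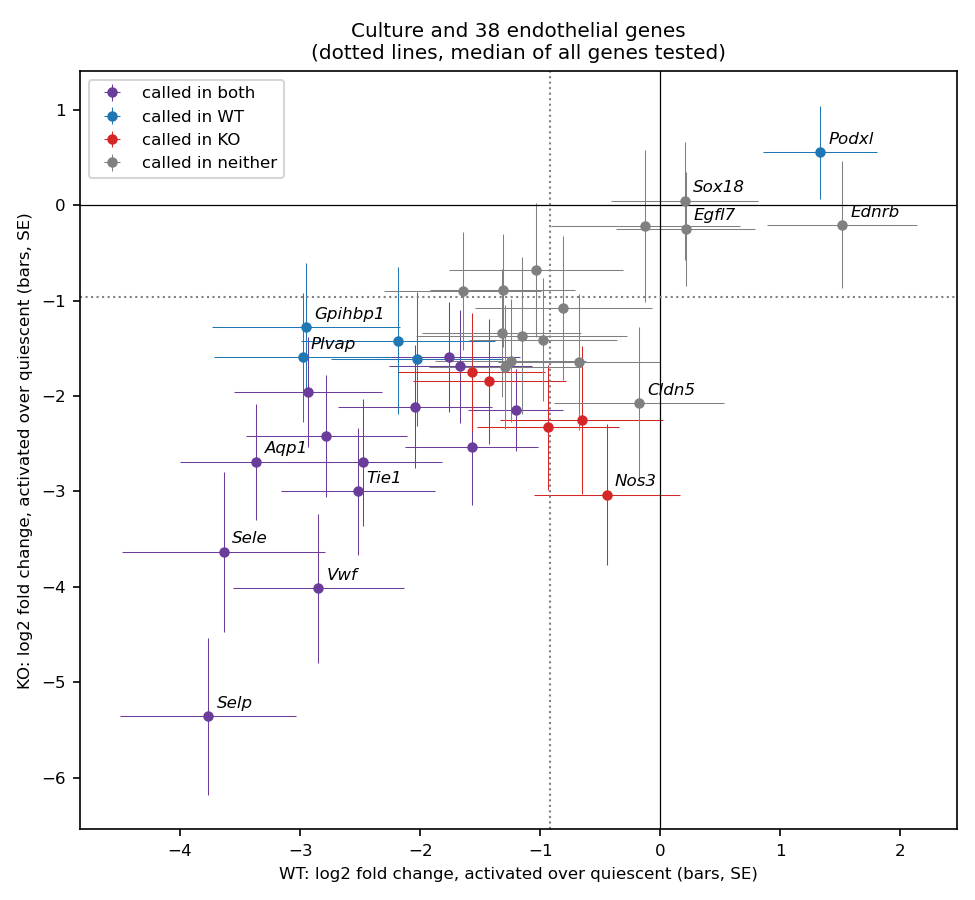
Log2 fold change of activated over quiescent libraries for each of the 38 endothelial genes in WT and KO cells, with bars that give the SE and dotted lines at the median of all genes tested. *Selp*, *Sele*, *Vwf* and *Aqp1* lie far below the dotted lines in both genotypes and *Podxl* lies above 0.

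The capillary genes had the lowest median of the role groups with more than 1 member in WT, -2.94, with 5 of 6 called lower in WT and 3 of 6 in KO. *Aqp1* was at 118 and 100.3 CPM in the WT and 116 and 207 CPM in the KO activated libraries. All 4 activated libraries were below all 8 quiescent libraries, and the log2 fold changes were -3.36 ± 0.63 (SE) in WT and -2.69 ± 0.61 (SE) in KO (edgeR adjusted p = 4.35e-04 and 0.00198). *Plvap* was at 31.7 and 14.4 CPM in the WT and 11.8 and 102 CPM in the KO activated libraries. It was lower in WT, with a log2 fold change of -2.98 ± 0.74 (SE) against -1.59 ± 0.67 (SE) in KO (adjusted p = 0.00453 and 0.0735, not called in KO). The remaining capillary genes, the fatty acid carriers *Cd36* and *Fabp4* with *Gpihbp1* and *Ly6c1*, had log2 fold changes of -2.95 to -1.65 in WT and -2.42 to -0.90 in KO.

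Of the 6 receptors, 4 were lower in WT and 3 in KO, the KO genes *Flt1*, *Tek* and *Tie1* being among the 4 of WT, which also held *Kdr*, the main signaling receptor of VEGF. *Flt1* was at 74.3 and 28.5 CPM in the WT and 30.8 and 65.7 CPM in the KO activated libraries. In WT both activated values were below all quiescent values, whereas KO activated replicate 2 was above KO quiescent replicate 4. The log2 fold changes were -2.04 ± 0.64 (SE) in WT and -2.11 ± 0.65 (SE) in KO (edgeR adjusted p = 0.0215 and 0.0164), and the call was lost without WT quiescent replicate 1 (-1.77) or WT activated replicate 2 (-1.47) in WT and without KO activated replicate 1 (-1.67) in KO. *Eng* was at 118 and 29.8 CPM in the WT and 29.8 and 176 CPM in the KO activated libraries, with log2 fold changes of -1.31 ± 0.61 (SE) in WT and -0.89 ± 0.59 (SE) in KO, and was called in neither (adjusted p = 0.107 and 0.236).

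Junction and adhesion genes divided. *Icam2*, *Ptprb*, *Sele* and *Selp* were lower in both genotypes, among them E-selectin (*Sele*) and P-selectin (*Selp*), which capture leukocytes, with log2 fold changes of -3.64 ± 0.85 (SE) and -3.76 ± 0.73 (SE) in WT and -3.63 ± 0.84 (SE) and -5.35 ± 0.82 (SE) in KO. These 4 were named after their values were seen, and in KO activated replicate 1 *Sele* had 1 count and *Selp* 2 counts. *Pecam1* was at 142 and 32.4 CPM in the WT and 27.0 and 96.3 CPM in the KO activated libraries. It had a log2 fold change of -1.25 ± 0.63 (SE) in WT and -1.63 ± 0.64 (SE) in KO and was not called (edgeR adjusted p = 0.137 and 0.0570). *Cdh5*, at 226 and 28.5 CPM in the WT and 24.4 and 91.9 CPM in the KO activated libraries, had log2 fold changes of -0.68 ± 0.67 (SE) and -1.64 ± 0.71 (SE) (adjusted p = 0.433 and 0.0821). For both genes the high activated library of each genotype overlapped the low quiescent libraries. Without WT activated replicate 1, *Pecam1* (-2.61), *Cdh5* (-2.77) and *Eng* (-2.57) were called lower in WT. Without KO activated replicate 2 they were called lower in KO, with log2 fold changes of -2.81, -2.88 and -2.66. Without WT activated replicate 2, *Cdh5* had a log2 fold change of 0.20 in WT.

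*Podxl* (ENSMUSG00000025608, chr6:31519488-31563981), a sialomucin of the endothelial glycocalyx, was the member higher in culture. It was at 201, 196, 56.0 and 86.1 CPM in the WT and 225, 85.3, 189 and 57.4 CPM in the KO quiescent libraries, and at 447 and 230.3 CPM in the WT and 197 and 212 CPM in the KO activated libraries. Both WT activated libraries were above all 4 WT quiescent libraries, while the KO groups overlapped. The log2 fold changes were 1.33 ± 0.48 (SE) in WT and 0.56 ± 0.49 (SE) in KO (edgeR adjusted p = 0.0414 and 0.363), and the difference between the genotypes, -0.78 ± 0.70 (SE), was not called (adjusted p = 0.970). The WT call was lost without WT quiescent replicate 3, without WT quiescent replicate 4 or without WT activated replicate 1, with log2 fold changes of 1.08, 1.17 and 0.85. It was also lost with DESeq2 (1.38) and with a replicate block (0.92).

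Among the 5 transcription factors, *Fli1* was lower in both genotypes and *Tal1* in KO. *Sox17* was at 41.5 and 5.69 CPM in the WT and 15.9 and 33.8 CPM in the KO activated libraries and *Erg* at 35.8 and 9.63 CPM in the WT and 6.16 and 25.6 CPM in the KO activated libraries. Neither was called, with log2 fold changes of -1.32 ± 0.66 (SE) in WT and -1.34 ± 0.67 (SE) in KO for *Sox17* and -0.98 ± 0.62 (SE) and -1.41 ± 0.64 (SE) for *Erg* (edgeR adjusted p between 0.0952 and 0.226). *Sox17* was called lower in WT without WT activated replicate 1 (-3.36), and *Erg* in KO without KO quiescent replicate 4 (-1.66) or KO activated replicate 2 (-2.76). *Sox18*, partner of *Sox17* in the SOXF group, had a log2 fold change of 0.20 ± 0.61 (SE) in WT and 0.05 ± 0.62 (SE) in KO.

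Of the secreted proteins, *Vwf* was at 31.4 and 1.75 CPM in the WT and 6.42 and 8.67 CPM in the KO activated libraries, below all quiescent libraries. Its log2 fold changes were -2.85 ± 0.71 (SE) in WT and -4.01 ± 0.78 (SE) in KO (edgeR adjusted p = 0.00475 and 5.25e-04). *Mmrn2*, at 65.3 and 15.3 CPM in the WT and 10.3 and 47.0 CPM in the KO activated libraries, overlapped the quiescent range through the high library of each genotype. It was lower in KO, with a log2 fold change of -1.85 ± 0.66 (SE) against -1.42 ± 0.64 (SE) in WT (adjusted p = 0.0364 and 0.0969). The KO call for *Mmrn2* was lost without KO quiescent replicate 1, KO quiescent replicate 3 or KO activated replicate 1, with values from -1.60 to -1.15, and was gained in WT without WT activated replicate 1 (-2.78). *Egfl7*, a secreted factor of growing vessels, had a log2 fold change of 0.21 ± 0.58 (SE) in WT and -0.25 ± 0.60 (SE) in KO.

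Of the 7 signaling genes, 2 were lower in WT and 4 in KO. *Cyyr1*, at 16.7 and 4.82 CPM in the WT and 7.19 and 14.1 CPM in the KO activated libraries, was lower in both, with log2 fold changes of -2.47 ± 0.65 (SE) and -2.69 ± 0.66 (SE) (edgeR adjusted p = 0.00724 and 0.00383), and lost its WT call without WT activated replicate 2 (-1.88). *Adgrf5*, at 79.4 and 35.0 CPM in the WT and 45.5 and 115 CPM in the KO activated libraries, was lower in WT, with a log2 fold change of -2.02 ± 0.72 (SE) against -1.61 ± 0.70 (SE) in KO (adjusted p = 0.0390 and 0.0805). Its WT call was lost without WT quiescent replicate 1, WT quiescent replicate 2 or WT activated replicate 2, with log2 fold changes of -1.75, -1.77 and -1.51, and its KO call was gained without KO quiescent replicate 2 or 4 or WT activated replicate 2. *Nos3*, at 52.5, 75.7, 22.6 and 28.1 CPM in the WT and 76.3, 24.4, 72.5 and 30.2 CPM in the KO quiescent libraries, was lower in KO, with a log2 fold change of -3.03 ± 0.74 (SE) against -0.45 ± 0.61 (SE) in WT (adjusted p = 0.00355 and 0.574). In WT its value depended on the library, with a log2 fold change of -2.79 and called without WT activated replicate 1 and of 0.41 without WT activated replicate 2. *Ednrb*, the endothelin B receptor, was at 37.1, 45.6, 21.0 and 24.3 CPM in the WT and 72.1, 29.3, 54.6 and 18.4 CPM in the KO quiescent libraries, and at 167 and 12.7 CPM in the WT and 15.2 and 60.2 CPM in the KO activated libraries. Of the WT activated libraries, replicate 1 was above and replicate 2 below all 4 WT quiescent libraries. The log2 fold change was 1.51 ± 0.63 (SE) in WT (edgeR adjusted p = 0.0746) and -0.21 ± 0.67 (SE) in KO, and the WT value turned to -1.25 without WT activated replicate 1. It was called without WT activated replicate 2 (2.44) and without either KO activated library (1.53 and 1.57). *Lyve1*, at 1.31 and 3.50 CPM in the WT and 2.57 and 3.65 CPM in the KO activated libraries, was not called, with log2 fold changes of -1.15 ± 0.88 (SE) in WT and -1.37 ± 0.82 (SE) in KO.

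To compare members with one another, the CPM of each was divided by that of *Pecam1* in the same library. Over the 8 quiescent libraries these ratios spanned a median of 1.73-fold from lowest to highest across the other 37 members, less than the 5.04-fold of their CPM. For 4 members the ratio was higher in all 4 activated libraries than in all 8 quiescent ones, for 5 it was lower in all 4, and for 28 the states overlapped. The same held above for 12.6% and below for 2.88% of the genes over 5 CPM in quiescent libraries, beside 10.8% and 13.5% of the members. These shares are not alike, since *Pecam1* itself ranged 4.49-fold over the quiescent libraries. Genes that did not rise and fall with it carry that range in their ratio, which makes a separation of the states harder to reach. Neither the higher nor the lower ratios are therefore a result about the members. The ratio of *Podxl* to *Pecam1* was 0.453 to 0.826 in the 8 quiescent libraries and 2.20 to 7.30 in the 4 activated libraries. Those of *Sox18*, *Egfl7* and *Ednrb* were 0.101 to 0.241 in the 8 quiescent libraries and 0.276 to 0.514 in the 4 activated libraries, 0.130 to 0.193 in the 8 quiescent libraries and 0.284 to 0.429 in the 4 activated libraries, and 0.134 to 0.284 in the 8 quiescent libraries and 0.392 to 1.18 in the 4 activated libraries. On the low side, the ratio of *Selp* was 0.620 to 0.944 in the 8 quiescent libraries and 0.0190 to 0.176 in the 4 activated libraries, and that of *Vwf* was 0.576 to 0.749 in the 8 quiescent libraries and 0.0541 to 0.238 in the 4 activated libraries. The lowest ratio of *Selp* rested on 2 counts in KO activated replicate 1. The other 3 were *Tie1*, *Sele* and *Cyyr1*. These 9 members were chosen by their values, so that the ratios describe the libraries, and the activated libraries differ from the quiescent ones in the sex of the mice as well as in culture. The ratio of *Pecam1* to *Pax7* was 0.208 to 1.35 in activated libraries, inside its quiescent range at the upper end and below it at the lower. *Pax7* was itself lower in activated libraries, at 71.2 to 129 CPM against 181 to 482 CPM in quiescent libraries, so that this ratio follows both genes.

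**Figure D5:**
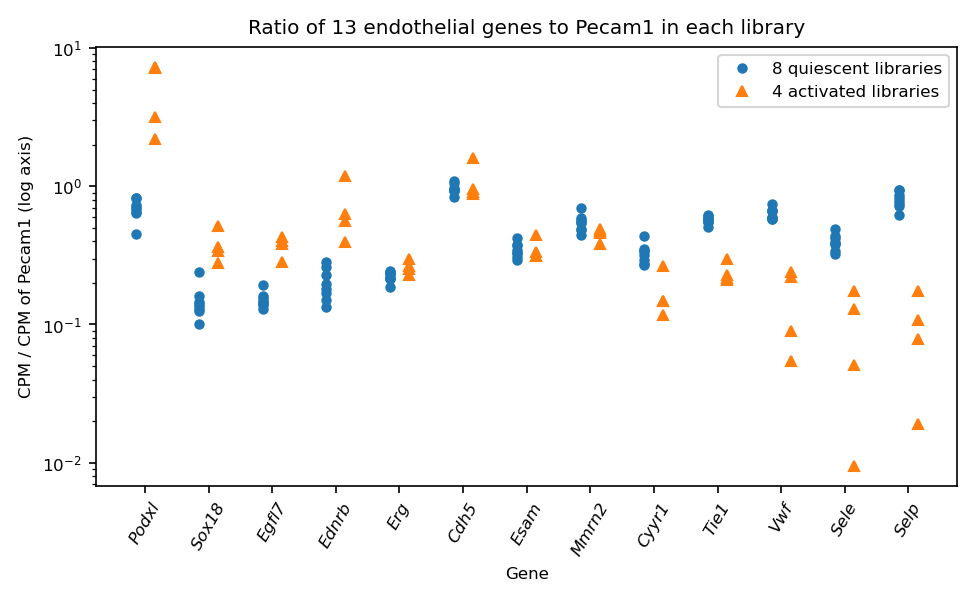
Ratio of the CPM of each endothelial gene to that of *Pecam1* in the same library on a log scale, with circles for the 8 quiescent and triangles for the 4 activated libraries. The triangles lie above all circles for *Podxl*, *Sox18*, *Egfl7* and *Ednrb* and below all circles for *Tie1*, *Sele*, *Selp*, *Vwf* and *Cyyr1*.

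Other genes of the vessel wall and of its growth factors were counted on lists that held no member, apart from the lymphatic list. Of 30 further endothelial genes, none was called between KO and WT in either state (edgeR). In quiescent and activated cells, 0 and 5 had an unadjusted p under 0.05, against 1.74% and 8.37% of all genes. In WT culture, 11 of the 30 were lower and 1 higher, against 16.5% and 9.64% of all genes and 26.7% lower above 5 CPM. In KO culture, 15 of the 30 were lower and 1 higher, against 18.5% and 11.1% of all genes and 28.8% lower above 5 CPM. The most abundant of them were *Cav1*, a protein of caveolae, with log2 fold changes of -2.55 ± 0.32 (SE) in WT and -2.46 ± 0.32 (SE) in KO, and *Cd34*, which quiescent satellite cells also carry, with -2.22 ± 0.30 (SE) and -1.40 ± 0.29 (SE), the last not called without KO activated replicate 1 (-1.03). The gene called higher in both genotypes was *Esm1*, a secreted product of endothelial tip cells, with log2 fold changes of 3.47 ± 0.54 (SE) in WT and 3.45 ± 0.53 (SE) in KO (adjusted p = 5.75e-05 and 4.51e-05), named after its values were seen.

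Of 10 ligands and co-receptors of the VEGF and angiopoietin pathways, none was called between KO and WT in either state by edgeR. In quiescent and activated cells 0 and 1 were at an unadjusted p under 0.05, against 1.74% and 8.37% of all genes. In culture 3 of the 10 were higher in both genotypes, and 0 and 2 were lower in WT and KO. The shares over all genes, in WT and KO, were 9.64% and 11.1% higher and 16.5% and 18.5% lower. The 3 higher genes, named after their values were seen, lost calls without single libraries. *Angpt2*, the angiopoietin that counters TEK activation, was at 84.8 and 18.0 CPM in the WT and 4.11 and 65.0 CPM in the KO activated libraries, with log2 fold changes of 3.25 ± 0.66 (SE) in WT and 2.74 ± 0.66 (SE) in KO. Without WT activated replicate 1 the WT value was 1.78 and not called, and without KO activated replicate 2 the KO value turned to -0.32. *Pgf*, a FLT1 ligand, was at 55.7 and 5.25 CPM in the WT and 12.8 and 14.8 CPM in the KO activated libraries, with log2 fold changes of 3.12 ± 0.59 (SE) and 1.92 ± 0.60 (SE), which without the same libraries were 0.62 and 1.83 and not called. *Vegfb*, also a FLT1 ligand, had log2 fold changes of 1.25 ± 0.35 (SE) and 1.32 ± 0.34 (SE), of which the WT value was 0.91 and not called without WT activated replicate 2. *Vegfa*, the most abundant ligand, had a log2 fold change of -0.22 ± 0.37 (SE) in WT and -0.04 ± 0.36 (SE) in KO and was not called. Of 7 lymphatic genes tested, 2 were lower in WT and 3 in KO, with *Prox1*, which muscle stem cells also use, having log2 fold changes of -3.65 ± 0.34 (SE) and -3.62 ± 0.34 (SE).

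Genes of other cell types moved with culture as well. Over all genes tested, 16.5% were lower and 9.64% higher in WT, and 18.5% lower and 11.1% higher in KO. Of 10 satellite cell genes, 8 were lower in WT and 9 in KO, as were 6 and 7 of 10 pericyte and smooth muscle genes and 5 and 6 of 7 Schwann cell genes. All 10 muscle fiber genes were higher in both genotypes. Their summed level went from 321 to 1091 CPM in quiescent to 7842 to 18969 CPM in activated libraries. Of 10 fibroadipogenic genes, 3 were lower and none higher in WT and 3 were lower and 2 higher in KO, and of 12 blood cell genes 4 and 7 were lower. The part of these changes in those of the 38 members was not tested.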

How the data were processed

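Cells were sorted as live *Pax7*-ZsGreen+ cells and polyadenylated RNA was sequenced as paired-end reads. According to the study's methods and the submitters' processing notes, the authors trimmed reads with Trim Galore 0.6.0, aligned them with STAR 2.7.2a to mm10 with GENCODE annotation and deposited raw counts per gene for the 12 libraries. They also deposited FPKM values pooled per group, which were not used for any test. Whether counting used strand or multiply mapped reads is not given in the sources used here.

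CPM is a library's count divided by the total over the genes tested times the TMM factor and multiplied by 1000000, and per kilobase values divide CPM by the merged exon length in GENCODE M21 (GRCm38), which also gave the coordinates. Fold changes came from edgeR 4.0.16 (R 4.3.3) after TMM scaling and filterByExpr, with 1 mean per group over the 12 libraries and a quasi-likelihood test, adjusted over 25771 genes by Benjamini-Hochberg. Intervals and SEs are those of the fit. Calls required an adjusted p under 0.05, a log2 fold change beyond 1 and a mean normalized count above 10. DESeq2 1.42.0, other scalings and filters, fits on the compared groups, a replicate block and fits without each library were alternatives. On simulated counts for the 25771 genes with 200 changed by a log2 of 2, 48.5%, 22.5% and 38.0% were called in quiescent KO against WT, activated KO against WT and WT culture, with 7, 2 and 7 false calls. The changed genes were drawn from all genes tested and varied independently, whereas the members moved together. Their SD was a median 52.4% of the mean in quiescent libraries, against 21.9% for genes above 5 CPM. These shares therefore do not give the power for the members.

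The 38 members and the other lists were chosen with earlier results of these data known. Full statistics were given for the 2 most abundant members of each role, members called between genotypes or called higher in culture, and the member with the lowest p in each genotype comparison, and other members named were chosen after their values were seen. The levels limit precision by depth, given per state in the report. All libraries differed by more than sampling noise. Of the members, 8 share exon bases with another gene (*Cyyr1*, *Ecscr*, *Egfl7*, *Eng*, *Nos3*, *Rasip1*, *Selp* and *Sox17*).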

Additional observations from a re-analysis of the deposited data

Results flagged for a closer look

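Among the groups of 4 libraries, 1 of 134 values tested stood out from its group by Dixon's criterion, which chance exceeds in about 5% of groups. The summed level of the 10 satellite cell genes was 9519 CPM in KO quiescent replicate 4, against 6106 to 6635 CPM in the other 3 KO quiescent libraries. This library had the lowest endothelial sum, 1397 CPM. In it *Pax7* was at 279 CPM, against 181 to 289.9 CPM in the other 3. No cause was tested.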

How the results depend on the processing

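The count of members called in KO against WT quiescent cells was 0 under every alternative run. In activated cells the count called lower was 0, with 2 without the filter on low counts and 0 to 2 when each library was left out, and for the interaction it was 3 without the filter and 0 to 1. In WT culture the 17 members called lower became 8 to 25 with each library left out, and the 1 called higher became 2 without the filter, 2 on the compared groups alone, 0 with DESeq2 and 0 to 2 with each library left out. In KO culture the 18 called lower became 29 without the filter and 9 to 26 with each library left out. Whether the replicate numbers pair the libraries was not settled. Same-number correlations of deviations from the group mean were -0.27 to 0.59 in quiescent cells and -0.07 in activated cells. With 2 libraries per genotype the activated deviations mirror each other, so that their value cannot decide on pairing. With the replicate block, 23 members were lower and 0 higher in WT culture, 21 were lower in KO culture, and none was called in KO against WT. Over the 25771 genes, the block called 4156 lower in WT culture and 4517 in KO culture, against 4246 and 4755 without it. Without the filter on low counts, 4768 of 46597 genes were called lower in KO culture. Not every library correlated best with its own number. Over all genes, DESeq2 called 58 genes as higher and 89 as lower in activated KO against WT, where edgeR called 8 genes as higher and 5 as lower. Without the filter on low counts edgeR called 39 genes as higher and 8 as lower in quiescent cells, 127 genes as higher and 205 as lower in activated cells and 63 genes as higher and 107 as lower for the interaction. The replicate block gave 14 genes as higher and 9 as lower in activated cells and 6 genes as higher and 0 as lower for the interaction, and the compared groups alone gave 3 genes as higher and 0 as lower in activated cells. The cause of these shifts was not tested.

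Signs turned in fits that left out 1 library. Without WT quiescent replicate 1, WT quiescent replicate 2, KO quiescent replicate 2 and KO quiescent replicate 4, in this order, the quiescent log2 fold change of KO over WT was 0.03, 0.11, 0.08, 0.14 for *Pecam1*, 0.03, 0.04, 0.04, 0.10 for *Cdh5* and 0.07, 0.02, 0.11, 0.22 for *Aqp1*, none called. Without KO quiescent replicate 1, that of *Lyve1* was -0.48. In activated cells, *Pecam1* was at 0.82 without WT activated replicate 1 and at 0.12 without KO activated replicate 1. For WT culture without WT activated replicate 2, *Cdh5* was at 0.20 and *Nos3* at 0.41. Over all fits that left out 1 library, the culture values in WT ran from -2.77 to 0.20 for *Cdh5* and from -2.79 to 0.41 for *Nos3*, and the values of KO over WT from -0.48 to 1.13 for *Lyve1*, -0.48 to 0.14 for *Pecam1*, -0.53 to 0.10 for *Cdh5* and -0.55 to 0.22 for *Aqp1* in quiescent cells and from -1.76 to 0.82 for *Pecam1* in activated cells. Of all alternative fits of the 37 fold changes of named members, 623 kept direction and side of the threshold, 46 gained a call, 17 lost it and 17 turned sign. Where a fit left 1 library in a group, that library was assumed to vary like the other groups. Depth limits the activated libraries, in which 1 to 7 of the 38 members had under 10 counts.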
